A study of Homo sapiens with 9 samples.

Results

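Instant caffeinated coffee and caffeic acid were compared directly in HT29, an established human colon adenocarcinoma cell line whose cultures keep traits of both absorptive and mucus-secreting gut epithelium. The comparison uses 6 of the 9 arrays of the study, selected by their titles: 3 arrays of cells given instant caffeinated coffee (ICC) and 3 of cells given caffeic acid (CA). ICC was applied at 7 µg/mL and CA at 1.68 µg/mL, both for 24 h and at concentrations described as not cytotoxic, so the doses differ and the sources used here do not give the caffeic acid content of the coffee. The 3 arrays of untreated cells (Control) serve as a reference and share in the estimate of the spread. Each array measured total RNA on the Affymetrix HG-U133 Plus 2.0 platform, and values are log2 of normalised intensity for 1 probe set per gene, 19775 genes in all. Replicates are numbered 1 to 3 in every group, and no label says whether they were separate cultures. The p-values therefore measure only the spread between these arrays.

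Caffeic acid is a catechol-bearing hydroxycinnamic acid, present in coffee mostly as its quinic acid ester chlorogenic acid. Brewed and instant coffee add caffeine, which blocks adenosine receptors and inhibits cyclic nucleotide phosphodiesterases, as well as trigonelline and products of roasting. Polycyclic and other aromatic compounds can bind the aryl hydrocarbon receptor, and electrophilic catechol quinones can release the transcription factor NRF2 from its repressor KEAP1. The comparison asks in which genes cells given the mixture differed from cells given this single phenolic acid.

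The labelled cell type was checked first. Keratin, cadherin and other markers of a colon epithelial line were measured for 9 of 9 genes, with a summed intensity of 47981 to 51418 in ICC, 48015 to 50684 in CA and 48901 to 51764 in Control. KRT18 was the brightest at a mean of 14.38 log2, while CDH17, CDX2 and CEACAM5 lay below the median of all genes (6.46 log2). CDH17 was the dimmest at 4.14 log2. Sums for leukocyte markers (6 of 8 listed genes measured) were 354 to 500 in ICC, 314 to 394 in CA and 350 to 536 in Control. The defining marker PTPRC was the dimmest of the 6 at 3.65 log2 and LAPTM5 the brightest at 7.18. Below the median of all genes lay 4 of the 6. Fibroblast markers summed to 370 to 399 in ICC and 347 to 380 in CA, endothelial markers to 153 to 169 and 142 to 155, and enteroendocrine markers to 129 to 151 and 125 to 147. Of the 7 fibroblast markers 6 lay below the median of all genes, and COL1A1 was the brightest at 7.24 log2. The median intensity of an array, over all probe sets but the control ones, was 43.8, 43.9 and 45.5 in CA replicates 1 to 3. It was 46.6, 44.9 and 44.5 in ICC, and 44.3, 44.7 and 44.5 in Control. ICC replicate 1 had the highest median and CA replicate 1 the lowest, and a sign of RNA quality, the GAPDH 3′ minus 5′ signal, spanned -0.018 to 0.025 log2 in CA and 0.010 to 0.093 in ICC.

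Differences between ICC and CA cells were at most 0.71 log2. With limma and Benjamini-Hochberg adjustment over all 19775 genes, 0 genes (0%) passed an adjusted p under 0.05, and the smallest adjusted p was 1. With the replicate number fitted as a block, 1 gene (0.00506%) passed, the calcium-binding protein S100A2, which was higher in ICC. The difference exceeded 0.5 log2 in 9 genes, and all 9 were higher in ICC. These were ACKR4, ADRA2A, ANXA13, S100A2, AGR3, TPPP3, AQP1, LGALS2 and AQP5.

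Smaller differences leaned the same way. The median of ICC minus CA over all genes was +0.024 log2, with 11979 genes above 0 and 7794 below. At an unadjusted limma p under 0.05, 434 genes (2.19%) were higher in ICC and 98 (0.496%) lower. With the block these were 916 (4.63%) and 262 (1.32%). All 3 ICC arrays lay above all 3 CA arrays in 813 genes (4.11%) and below them in 347 (1.75%). The counts at an unadjusted limma p under 0.05 without the block changed with the scaling of the arrays. Setting the array medians equal gave 233 higher and 220 lower. That step removes a shift shared by all genes by construction, so the balance cannot show where the lean came from. A repeated quantile normalization gave 360 higher and 173 lower. The part of the scaling in the lean was not tested. The counts also changed with single arrays, with 215 higher and 131 lower without ICC replicate 1 and 807 and 147 without ICC replicate 2. With the block the total of 1178 went to 641 without ICC replicate 1 and 745 without CA replicate 1.

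**Figure D1:**
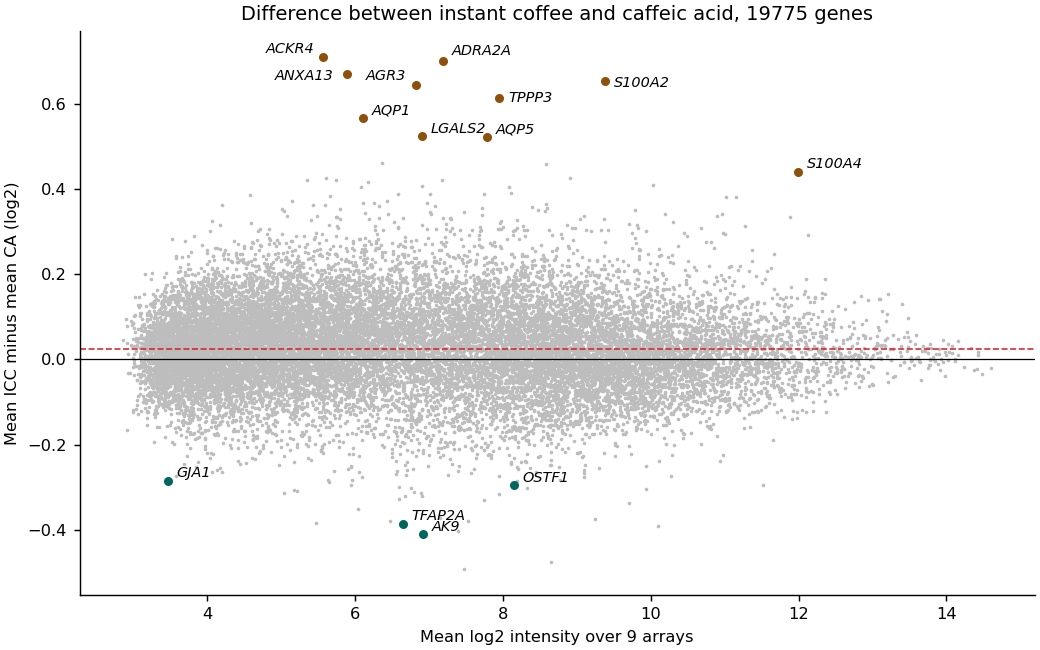
Mean ICC minus mean CA (log2, vertical axis) against the mean log2 intensity over the 9 arrays (horizontal axis) for 19775 genes; each point is a gene, brown points are named genes higher in ICC, green points named genes lower in ICC, and the dashed line is the median of +0.024. The 9 genes over 0.5 log2 all lie on the ICC side, most of them between 5 and 8 log2, with S100A2 brighter than the other 8.

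Before their values, the promoters of the 4 genes over 0.5 log2 in which all 3 ICC arrays lay above all 3 CA arrays are shown. The other 5 genes of that size, ACKR4 and ANXA13 among them, had overlapping groups. Sequences are from RefSeq on GRCh38.p14, from 250 bases before to 50 after a start site, written 5′ to 3′ on the gene's strand, and S100A2 has 2 starts in the table. Capitals mark matches, on either strand, to TATAAA (core promoter box), TGANTCA (AP-1) or GCCNNNGGC (AP-2).
S100A2, chr1:153565795-153566094, minus strand: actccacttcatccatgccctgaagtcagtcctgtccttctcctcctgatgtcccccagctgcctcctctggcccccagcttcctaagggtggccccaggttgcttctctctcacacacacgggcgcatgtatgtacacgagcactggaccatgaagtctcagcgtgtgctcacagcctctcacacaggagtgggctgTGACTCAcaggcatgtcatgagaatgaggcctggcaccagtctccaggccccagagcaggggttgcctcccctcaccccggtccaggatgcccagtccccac
S100A2, chr1:153563838-153564137, minus strand: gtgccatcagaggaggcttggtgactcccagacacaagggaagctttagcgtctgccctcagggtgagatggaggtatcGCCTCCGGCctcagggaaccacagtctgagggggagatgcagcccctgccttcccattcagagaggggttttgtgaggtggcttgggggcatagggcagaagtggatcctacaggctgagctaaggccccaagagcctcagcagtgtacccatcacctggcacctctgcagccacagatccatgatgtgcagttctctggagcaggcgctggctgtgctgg
ADRA2A, chr10:111076779-111077078, plus strand: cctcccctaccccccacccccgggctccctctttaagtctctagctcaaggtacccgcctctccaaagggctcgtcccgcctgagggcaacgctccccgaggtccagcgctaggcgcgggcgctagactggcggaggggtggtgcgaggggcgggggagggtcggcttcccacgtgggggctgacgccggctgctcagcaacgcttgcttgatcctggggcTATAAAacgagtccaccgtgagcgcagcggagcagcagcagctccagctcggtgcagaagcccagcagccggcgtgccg
AQP5, chr12:49961622-49961921, plus strand: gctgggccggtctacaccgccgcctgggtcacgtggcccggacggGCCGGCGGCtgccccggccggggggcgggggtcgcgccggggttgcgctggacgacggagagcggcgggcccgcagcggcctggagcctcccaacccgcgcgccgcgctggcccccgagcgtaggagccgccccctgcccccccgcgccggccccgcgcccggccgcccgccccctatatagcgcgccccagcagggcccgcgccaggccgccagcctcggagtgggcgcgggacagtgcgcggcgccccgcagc
AGR3, chr7:16881934-16882233, minus strand: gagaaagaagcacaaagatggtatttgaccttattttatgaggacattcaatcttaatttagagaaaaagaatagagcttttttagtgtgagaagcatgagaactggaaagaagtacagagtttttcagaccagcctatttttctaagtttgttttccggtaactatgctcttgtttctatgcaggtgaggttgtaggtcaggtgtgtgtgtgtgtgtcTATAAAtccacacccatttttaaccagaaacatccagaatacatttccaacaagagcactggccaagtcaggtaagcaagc

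The 4 genes shared none of these matches as a set. The first S100A2 window held the AP-1 letters TGACTCA at positions -52 to -46 from the start, and the second held GCCTCCGGC at -171 to -163. ADRA2A and AGR3 held TATAAA, at -29 to -24 and -31 to -26, and AQP5 held GCCGGCGGC at -205 to -197. Of 35116 RefSeq promoter windows of this length, 11.5% held TATAAA, 7.71% the AP-1 letters and 23.2% the AP-2 letters. Elements of the pathways introduced above were searched on both strands as well and are not in capitals. The xenobiotic response element core GCGTG, in 36.5% of windows, was in the first S100A2 window at -88 to -84 and in ADRA2A at +42 to +46. The antioxidant response element core TGACNNNGC, in 13.3%, was in AGR3 at +30 to +38, and the cAMP response element TGACGTCA, in 1.85%, was in none of the 5 windows. A match describes the letters and is not a binding site.

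S100A2, an EF-hand calcium-binding protein best known from stratified and glandular epithelium, read 9.75, 9.45 and 9.62 log2 in ICC replicates 1 to 3 and 9.06, 8.77 and 9.03 in CA. Untreated cells read 9.60, 9.44 and 9.67. The ICC arrays lay within the range of the untreated ones or close to it, and all 3 CA arrays lay below both. ICC exceeded CA by 0.65 ± 0.11 log2 (SE, 3 arrays a group, 1.57-fold, 95% interval 0.42 to 0.89), in 3 of 3 same-numbered pairs. The limma adjusted p was 1 without the block and 0.0388 with it, where the SE was 0.068. With the block the call was lost when any 1 of the 6 arrays was left out (limma adjusted p 0.187 to 0.495), when only the 6 arrays were fitted (smallest adjusted p 0.302) and when probe sets were tested singly (0.133), while the difference stayed between 0.56 and 0.73 log2 in the 27 alternatives tried.

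TPPP3, a tubulin-binding protein, read 8.50, 8.14 and 7.96 log2 in ICC and 7.98, 7.57 and 7.22 in CA. Replicate 1 was the highest and replicate 3 the lowest in both groups, which overlapped, while every same-numbered pair was higher in ICC. The difference was 0.61 ± 0.20 log2 (SE, 1.53-fold) with a limma adjusted p of 1. With the block its SE was 0.074 and its limma adjusted p 0.0799, and it passed with the block after quantile normalization (0.0450), without dim genes (0.0412), with probe sets averaged per gene (0.0443) or with an intensity trend in the variance (0.0374). It did not pass with the block when any 1 array was left out (limma adjusted p 0.258 to 0.635) or when probe sets were tested singly (0.256). Nor did it with only the 6 arrays, after centring on the array medians or without _x_at and _s_at probe sets. Untreated cells averaged 8.07.

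ADRA2A, the alpha-2A adrenergic receptor, which couples to the inhibitory G protein and lowers cAMP, read 7.46, 7.23 and 7.72 log2 in ICC against 6.85, 6.40 and 7.06 in CA. The 2 groups did not overlap. The difference was 0.70 ± 0.17 log2 (SE, 3 arrays a group, 1.63-fold, 95% interval 0.33 to 1.08), with a limma adjusted p of 1 and of 0.167 with the block. Untreated arrays, at 7.17, 7.27 and 7.49, overlapped the ICC arrays and lay above all 3 CA arrays.

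The largest difference was that of ACKR4, a scavenging receptor for the chemokines CCL19, CCL21 and CCL25, which read 5.95, 5.99 and 5.57 log2 in ICC and 5.21, 5.64 and 4.53 in CA. CA replicate 2 lay within the ICC range, and the 3 CA arrays spread over more than the difference of 0.71 ± 0.27 log2 (SE, 1.64-fold). ANXA13, an annexin of the gut epithelium, ranged from 5.48 to 6.93 in ICC and from 4.96 to 6.10 in CA, with replicate 2 the highest in both. Its difference was 0.67 ± 0.38 log2 without the block and its SE was 0.11 with it. LGALS2, the galactose-binding lectin galectin-2, read 7.06, 7.35 and 6.69 in ICC and 6.66, 6.82 and 6.07 in CA (0.52 log2, 1.44-fold), and again the groups overlapped while every pair was higher in ICC. With the block the limma adjusted p was 0.563 for ACKR4, 0.287 for ANXA13 and 0.242 for LGALS2.

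Water channels made up a pair of the 9. AQP5, an apical channel of glandular epithelium, read 7.94, 7.96 and 8.20 log2 in ICC and 7.39, 7.54 and 7.60 in CA, with the untreated arrays at 7.84, 7.80 and 7.77 between them. The difference was 0.52 ± 0.088 log2 (SE, 1.44-fold, 95% interval 0.33 to 0.72), with a limma adjusted p of 1 and of 0.242 with the block. AQP1, a channel of many fluid-transporting cells, read 5.87, 6.63 and 6.44 in ICC and 5.75, 5.58 and 5.92 in CA (0.57 ± 0.17 log2, SE), and ICC replicate 1 fell within the CA range. Its other probe set stood at +0.26.

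AGR3, a protein disulfide isomerase of secretory and ciliated cells, read 6.69, 7.46 and 6.87 log2 in ICC and 6.09, 6.42 and 6.57 in CA. The groups did not overlap, although the pair differences ran from 0.30 for replicate 3 to 1.04 for replicate 2. The mean difference was 0.64 ± 0.19 log2 (SE, 1.56-fold, 95% interval 0.23 to 1.06), with a limma adjusted p of 1 and of 0.487 with the block. Untreated cells read 6.94, 7.28 and 7.15, above all 3 CA arrays.

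In each of the 9 genes the untreated mean was nearer to the ICC mean than to the CA mean, lying between them in 7 and above both in 2 (AGR3 and LGALS2). Over all genes, the untreated mean was nearer to ICC in 8501 and nearer to CA in 11237. Among the 434 genes higher in ICC at an unadjusted limma p under 0.05, it was nearer to ICC in 180 and to CA in 254. Set against untreated cells, S100A2 stood at +0.037 log2 in ICC and -0.62 in CA, ADRA2A at +0.16 and -0.54, and AGR3 at -0.12 and -0.76. The comparisons with untreated cells share their arrays with each other, so these values place the difference and do not test it.

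**Figure D2:**
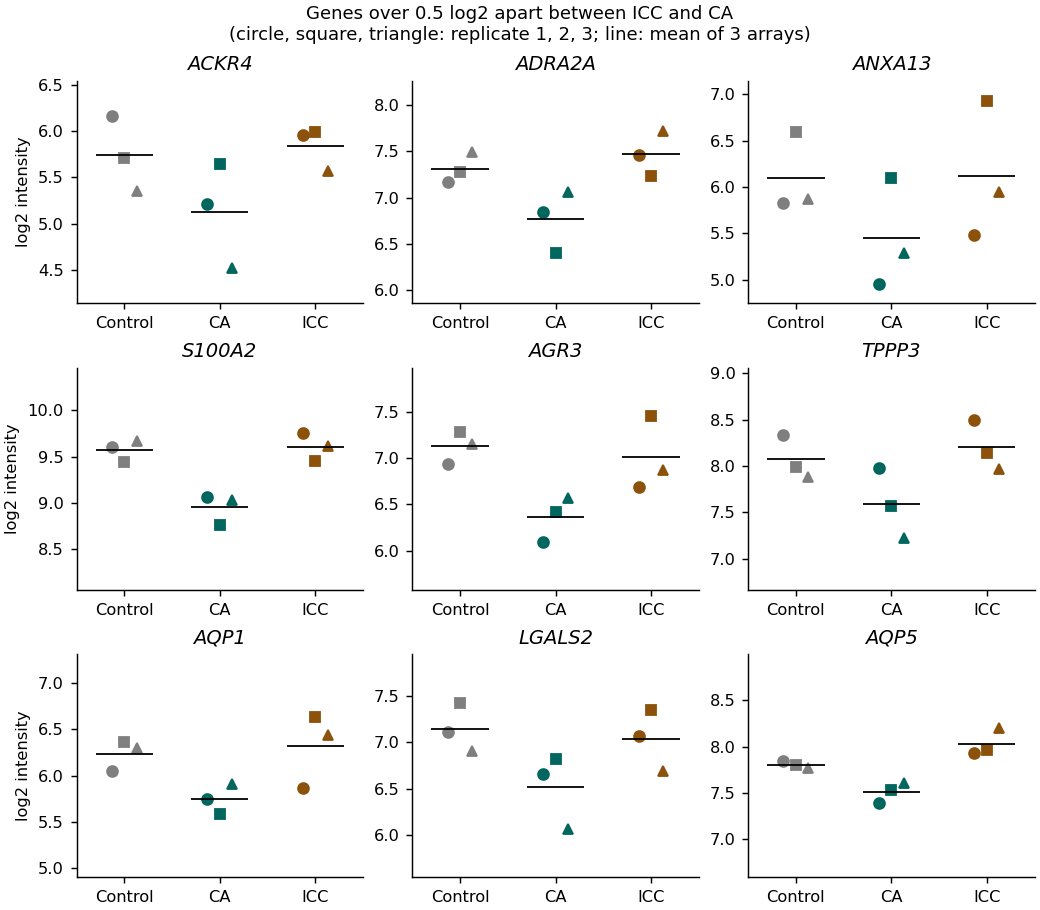
log2 intensity (vertical axes, not starting at 0) of the 9 genes over 0.5 log2 apart, in Control, CA and ICC; each symbol is an array (circle, square and triangle for replicates 1, 2 and 3) and the line is the mean of 3 arrays. The CA mean is the lowest of the 3 groups in every panel, and the 3 ICC arrays clear all 3 CA arrays in ADRA2A, S100A2, AGR3 and AQP5.

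Below 0.5 log2, 8 further genes were among the 10 highest in ICC relative to their spread. TMPRSS4, a membrane-anchored serine protease, read 8.49, 8.61 and 8.46 log2 in ICC and 8.06, 8.31 and 8.11 in CA (0.36 ± 0.080, SE), and PRSS22, the secreted tryptase epsilon, read 7.49, 7.40 and 7.47 against 7.13, 7.23 and 7.10 (0.30 ± 0.068). DEFB1, the constitutive beta-defensin of epithelia, read 6.27, 6.16 and 6.22 against 5.91, 5.61 and 5.91 (0.40 ± 0.094). HSD11B2, which inactivates cortisol, stood 0.46 ± 0.10 higher, CDC42EP5, an effector of the small GTPase CDC42, 0.39 ± 0.091, PHYHD1 0.37 ± 0.083 and PARP15, a dim gene whose other probe set stood at -0.15, 0.27 ± 0.064. VGLL1, a cofactor of TEAD transcription factors, had the tightest groups, from 7.95 to 8.03 in ICC and from 7.72 to 7.73 in CA (0.28 ± 0.061). In these 8 genes ICC and CA arrays lay apart, as the rule that chose them required. Their limma adjusted p was 1 without the block and between 0.563 and 0.587 with it.

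Among genes above the median brightness whose groups did not overlap, the next largest was S100A4, a calcium-binding protein linked to cell motility, at 12.01, 12.31 and 12.15 log2 in ICC and 11.55, 11.65 and 11.95 in CA (0.44 ± 0.14, SE, 1.36-fold). The groups were narrowly apart, and untreated cells, at 11.84 to 12.27, overlapped both.

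In the values as deposited, genes lower in ICC were fewer, and the largest of them differed by less. With the array medians set equal, which removes a shared shift by construction, the numbers at an unadjusted limma p under 0.05 were close. They were 220 lower and 233 higher, and 489 and 491 with the block. TFAP2A, the transcription factor AP-2 alpha of epithelial and neural crest development, read 6.44, 6.43 and 6.44 log2 in ICC and 6.94, 6.76 and 6.77 in CA, with untreated arrays from 6.62 to 6.71 between them. The difference was -0.39 ± 0.071 log2 (SE, 1.31-fold, 95% interval -0.54 to -0.23), with a limma adjusted p of 1 and of 0.487 with the block. Its probe sets disagreed, since the 2 dimmer ones stood at +0.21 and -0.17. OSTF1, a signalling adaptor first described in osteoclasts, read 7.87, 8.004 and 7.81 in ICC and 8.22, 8.13 and 8.22 in CA (-0.30 ± 0.074), and here the untreated arrays, at 8.31 to 8.41, lay above both.

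The other genes low in ICC relative to their spread were GJA1, a connexin of gap junctions (-0.28), ZFYVE16, an endosomal adaptor of TGF-beta family receptors (-0.25), ALOX15, an arachidonate lipoxygenase (-0.24), AMN1 (-0.31), MOSMO, an attenuator of Smoothened (-0.39), and the zinc finger gene ZNF567 (-0.28, with its 3 other probe sets between -0.023 and +0.046). GJA1 was dim, from 3.22 to 3.38 log2 in ICC and 3.51 to 3.62 in CA. ALOX15 read 4.43 to 4.47 in ICC and 4.68 to 4.73 in CA, and its untreated arrays, at 4.34 to 4.55, lay with ICC. CEP44 (-0.26) stood at +0.071 when probe sets of the _x_at and _s_at types were left out. NBPF20 (-0.27, other probe set -0.028) has near-identical copies whose signal its probes may share. Among genes above the median brightness with the groups apart, AK9, an adenylate kinase family member, was lowest at -0.41 ± 0.14 log2, followed by TFAP2A and then by SLC60A2 (-0.38), RESF1 (-0.37) and RALGAPA1 (-0.32), each with a limma adjusted p of 1. Of the other 4 only RESF1 had another probe set as low (-0.43), since those of AK9 stood at -0.069 and -0.032, those of SLC60A2 at +0.005 and +0.015 and those of RALGAPA1 between -0.060 and +0.085. Of the 10 lowest by moderated t the untreated mean was nearer to CA in 7, and of the 10 highest it was nearer to ICC in 7. Wider sets of genes higher in ICC did not share this. The untreated mean was nearer to ICC in 36.0% of the 813 genes with all ICC arrays above CA, against 43.0% of all genes. For the 347 genes with all ICC arrays below CA it was nearer to CA in 209 and nearer to ICC in 39.8%, close to the share over all genes. Of all 19775 genes 11237 had the untreated mean nearer to CA, so the 7 of the 10 lowest are also not far from the background.

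**Figure D3:**
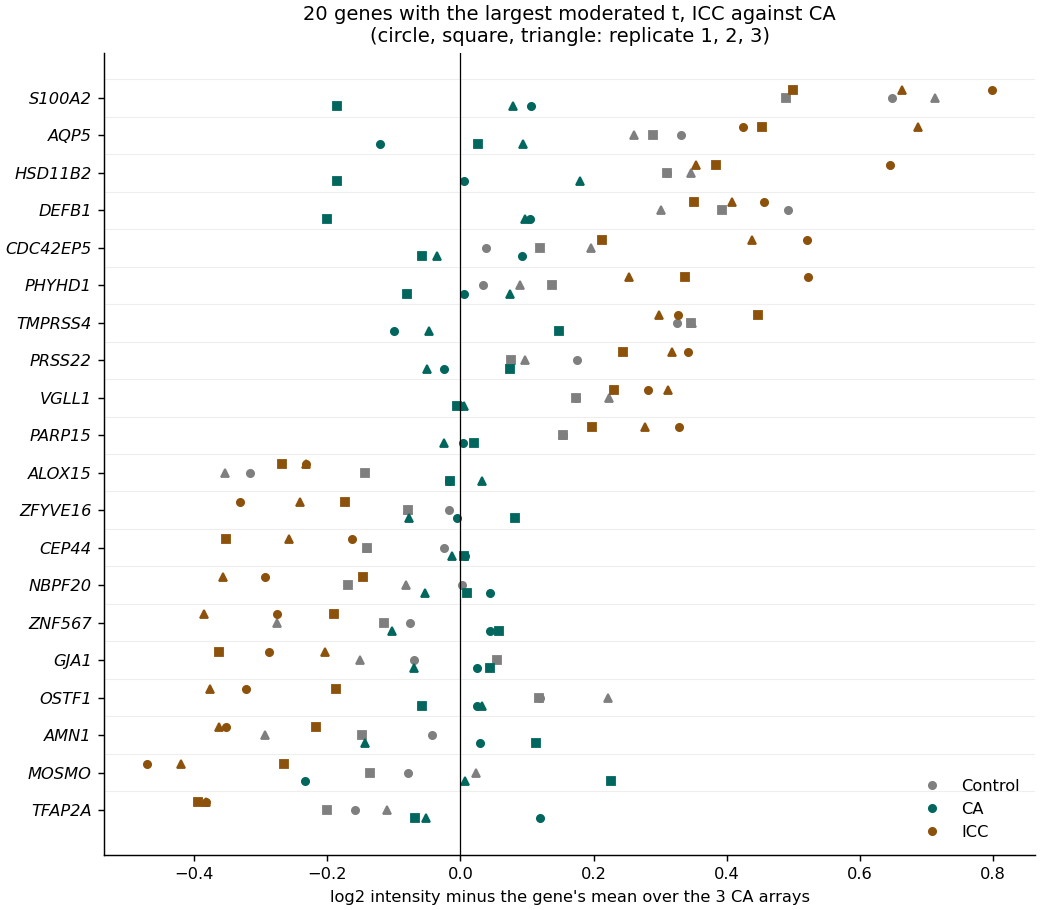
log2 intensity minus the gene's mean over the 3 CA arrays (horizontal axis) for the 10 genes highest and the 10 lowest in ICC relative to their spread; symbols are single arrays (circle, square and triangle for replicates 1, 2 and 3), coloured by group. By the way the genes were chosen ICC and CA do not overlap; untreated arrays lie with ICC for S100A2, DEFB1, TMPRSS4 and ALOX15, and beyond CA for OSTF1.

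Gene groups were then read as whole lists, beside the median of +0.024 log2 and the shares given above for all genes. Markers of cell types that an epithelial line should lack leaned the same way as most lists, with a median of +0.157 and 5 of 6 above 0 for leukocytes (LAPTM5 +0.42 and CD14 +0.24), +0.067 and 5 of 7 for fibroblasts, +0.063 and 5 of 5 for endothelium and +0.057 and 3 of 5 for enteroendocrine cells. Their part in the list values was not tested. Setting the array medians equal moved the median of all genes to -0.0061, so single members this close to 0 have no settled side.

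The secretory genes of goblet cells, which make and fold mucus proteins, had 19 of 23 members above 0 and a median of +0.14. At an unadjusted limma p under 0.05, there were 4 higher and 0 lower members, and fitting the block gave 10 and 0. After AGR3 the widest was AGR2, the disulfide isomerase that folds mucins, at 10.49, 11.18 and 11.50 log2 in ICC and 10.14, 10.73 and 11.28 in CA. Its level differed more between replicate numbers than between treatments, and its difference of 0.34 had an SE of 0.31 without the block and of 0.081 with it. BCAS1 (+0.29), the trefoil peptide TFF3 (+0.26), the lectin REG4 (+0.25, other probe sets +0.17 and -0.083), the mucus protein FCGBP (+0.24) and SPDEF (+0.22), a transcription factor of goblet cell maturation, followed. The lean was not shared by every member: the secretory fate regulator ATOH1 stood at +0.06, the lectin ZG16 at -0.04 and the transcription factor GFI1 at -0.06. The list's median was 0.28 over the replicate 1 pair and 0.083 and 0.091 over the others, and without CA replicate 1 it was 0.068. Over all probe sets the replicate 1 arrays were also those with the highest (ICC) and lowest (CA) median intensity. Over the genes analysed ICC replicate 1 was again the highest, at 6.556 log2. CA replicate 1, at 6.463, lay above CA replicates 2 and 3 (6.42 and 6.443). The part of the array medians in the result was not tested. After centring on the medians of all probe sets the list's median was 0.111.

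Mucins, the gel-forming and membrane-bound glycoproteins of mucus, had 11 of 13 above 0 and a median of +0.069, with 1 higher and 0 lower at p under 0.05 and 2 and 0 with the block. The membrane mucin MUC1 read 7.04, 6.92 and 7.04 log2 in ICC and 6.75, 6.61 and 6.87 in CA (0.26 ± 0.096, SE), but its other probe sets stood at +0.15 and -0.0086. The gastric gel mucin MUC5AC read 6.92, 7.31 and 7.76 against 6.50, 7.29 and 7.28 (+0.31), with overlapping groups and other probe sets from -0.16 to +0.42. The intestinal gel mucin MUC2 stood at -0.06. The list's median was 0.147 without ICC replicate 2, 0.121 without CA replicate 3, 0.0413 without CA replicate 2 and 0.184 without dim genes.

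Aquaporins and the channels and exchangers of epithelial chloride and bicarbonate secretion had 12 of 17 measured members above 0 and a median of +0.14, with 4 higher and 0 lower at p under 0.05, and 5 and 0 with the block. ANO1, the calcium-activated chloride channel, read 9.96, 9.74 and 10.17 log2 in ICC and 9.56, 9.60 and 9.65 in CA (0.35 ± 0.10, SE). SLC4A4, the sodium bicarbonate cotransporter, read 6.33, 6.31 and 6.33 against 6.16, 5.95 and 6.05 (0.27 ± 0.073), and in both genes the groups did not overlap. The other probe set of ANO1 stood at +0.13, while the 4 others of SLC4A4 stood between -0.13 and +0.10. SLC4A4 in untreated cells, at 6.62 to 6.75, was above both treatments, unlike AQP5. The chloride channel CFTR stood at +0.18 and AQP4 at -0.17. The list's median depended on single arrays, being 0.013 without CA replicate 2, 0.033 without CA replicate 1 and 0.056 without ICC replicate 3. It was 0.197 without CA replicate 3, 0.184 without dim genes and 0.074 with probe sets averaged per gene.

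The S100 family of small EF-hand proteins had 16 of 19 above 0, a median of +0.089 and 3 higher and 0 lower at p under 0.05, with 4 and 0 with the block, of which S100A2 is the 1 that passed over all genes. Beyond S100A2 and S100A4, S100A3 stood at +0.19 ± 0.087 log2 (SE). S100A6 read 13.50, 13.44 and 13.46 in ICC and 13.34, 13.30 and 13.36 in CA, a difference of 0.13 with no overlap. The calprotectin subunits S100A8 and S100A9 stood at +0.10 and +0.03. The median of the S100 list ran from 0.074 without ICC replicate 2 to 0.126 without CA replicate 1, and was 0.059 after centring. Membrane serine proteases and their inhibitors, which process surface proteins of the epithelium, had 14 of 17 measured members above 0 and a median of +0.11, with 3 higher and 0 lower at p under 0.05, with or without the block. Matriptase (ST14), prostasin (PRSS8) and their inhibitor SPINT1 stood at +0.12, +0.11 and +0.14, SPINT2 at -0.04. Without ICC replicate 3 this median was 0.055, and without CA replicate 2 it was 0.067.

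Enterocyte and brush border genes, of absorptive cells, had 20 of 28 above 0 and a median of +0.069, with 2 higher and 0 lower at p under 0.05 and 4 and 0 with the block. CEACAM1, an adhesion molecule of the apical surface, read 10.44, 10.34 and 10.43 log2 in ICC and 10.21, 9.995 and 10.20 in CA (0.27 ± 0.11, SE). GUCA2B, the peptide uroguanylin, stood at +0.30, CEACAM6 at +0.35 and CA2, a cytosolic carbonic anhydrase, at +0.27. Brush border enzymes and structural proteins lay near 0, with villin (VIL1) at -0.02, sucrase-isomaltase (SI) at +0.04, alkaline phosphatase ALPI at -0.02 and dipeptidyl peptidase DPP4 at +0.05. Junction proteins and keratins had 16 of 26 above 0 and a median of +0.033, with 1 higher and 1 lower at p under 0.05, and 5 and 1 with the block. Claudin 2 (CLDN2), a pore-forming claudin, stood at +0.32 and the connexin GJB1 at +0.19, while E-cadherin (CDH1) stood at +0.05 and occludin (OCLN) at -0.07. The median of the junction list ran from 0.016 without ICC replicate 3 to 0.081 without ICC replicate 2.

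**Figure D4:**
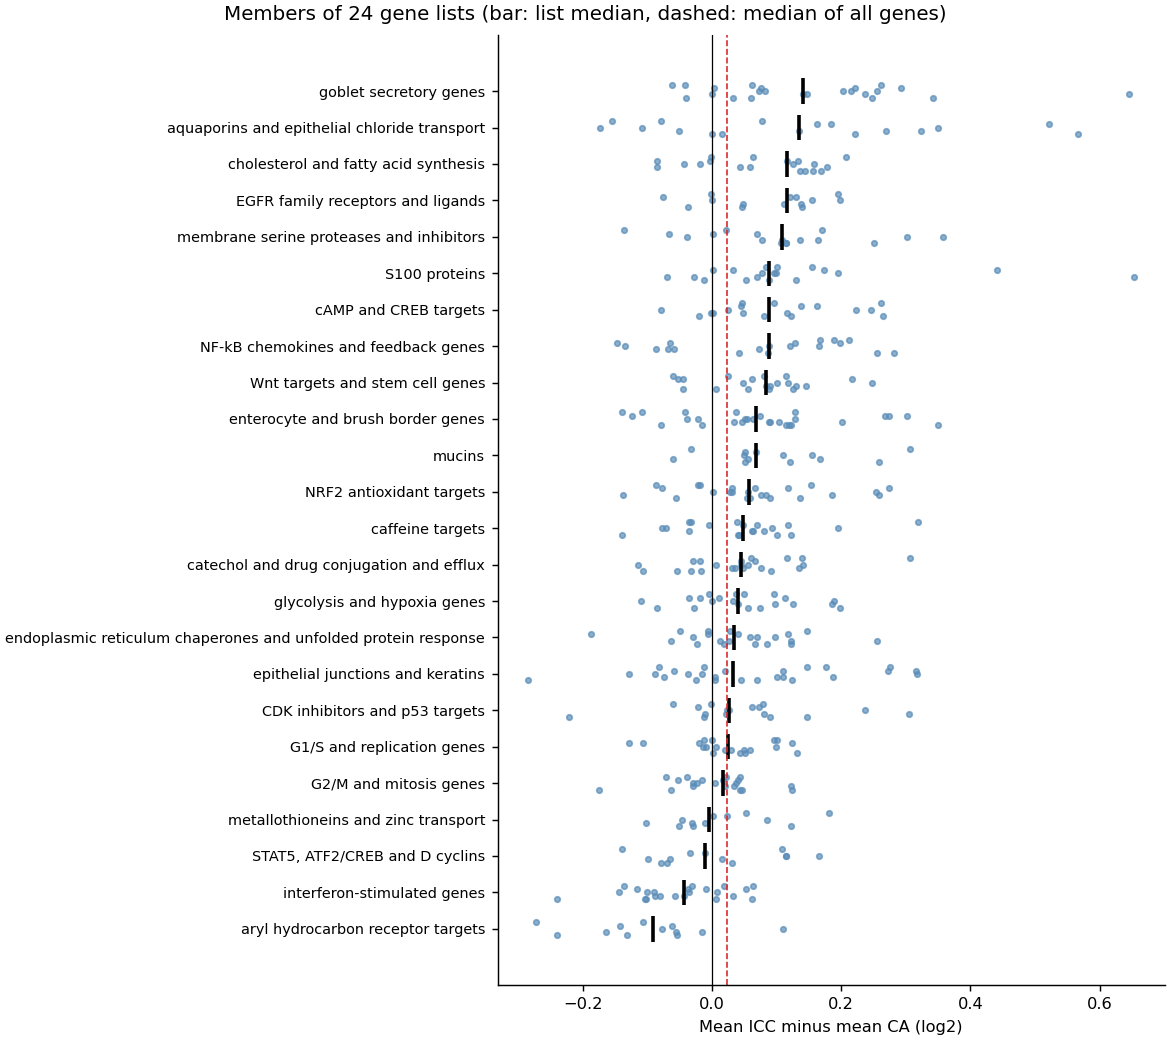
Mean ICC minus mean CA (log2, horizontal axis) for every measured member of 24 gene lists, 1 point per gene, ordered by the list median (black bar); the dashed line is the median of all 19775 genes. Goblet secretory genes and aquaporins with chloride transport lie highest, with medians of +0.14, and aryl hydrocarbon receptor targets lowest, at -0.092; the members of each list spread over more than the distance between most medians.

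Caffeine is present in ICC and not in CA, and its direct targets, adenosine receptors, phosphodiesterases and ryanodine receptors, had 14 of 21 measured members above 0 with a median of +0.048. None passed p under 0.05 in limma without the block (0 higher, 0 lower) and 1 was higher with it. That gene was PDE4B, a cAMP-specific phosphodiesterase, at 5.26, 4.62 and 4.57 log2 in ICC and 4.97, 4.27 and 4.26 in CA (+0.32), where replicate 1 was the highest in both groups. PDE1B stood at +0.12, PDE2A at +0.10, the adenosine receptors ADORA1 and ADORA2B at +0.12 and +0.06, and PDE4D at -0.14. Among members brighter than the median gene the list's median was -0.036, and without CA replicate 2 it was 0.012. Targets of cAMP and CREB had 15 of 18 above 0 and a median of +0.089, with 1 higher and 0 lower at p under 0.05 and 2 and 0 with the block. PPARGC1A, the coactivator PGC-1 alpha, read 4.85, 4.51 and 4.65 in ICC and 4.34, 4.47 and 4.47 in CA (0.25 ± 0.092, SE), with untreated cells below both at 4.20 to 4.32, but its other probe set stood at -0.039. The immediate early genes FOS and NR4A1 stood at +0.16 and +0.12, RGS2, a brake on G protein signalling, at +0.22, NR4A2 at 0.00 and PCK1 at +0.05. The median of this list ran from 0.026 without CA replicate 3 to 0.216 without CA replicate 2.

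Aryl hydrocarbon receptor targets leaned the other way from most lists, with 11 of 12 measured members below 0 and a median of -0.092 log2. None passed p under 0.05 (0 higher, 0 lower), and with the block 0 were higher and 1 lower. That gene was ALDH1A3, a retinaldehyde dehydrogenase, at 10.62, 9.85 and 10.14 in ICC and 10.91, 10.28 and 10.24 in CA (-0.27, SE 0.25, with the block 0.088), whose other probe set stood at +0.035. The receptor's classic targets CYP1B1, CYP1A1 and TIPARP stood at -0.24, -0.14 and -0.16, with CYP1A1 at 5.94 to 6.14 in ICC and 5.94 to 6.28 in CA. The repressor AHRR was the exception at +0.11. The list's median stayed below 0 without any 1 of the 6 arrays, between -0.128 and -0.035 (without CA replicate 2), and was -0.122 after centring. Against untreated cells the medians of the list were +0.046 in ICC and +0.137 in CA.

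NRF2 targets, which supply glutathione, NADPH and quinone reduction, had 18 of 24 measured members above 0 and a median of +0.057, with 1 higher and 0 lower at p under 0.05 and 2 and 0 with the block. TKT, transketolase of the pentose phosphate pathway, read 11.57, 11.46 and 11.45 log2 in ICC and 11.23, 11.28 and 11.20 in CA (0.26 ± 0.068, SE), without overlap. HMOX1 stood at +0.25, the repressor KEAP1 at +0.19, NQO1 at -0.08, GCLC at -0.09 and TXNRD1 at -0.14, so core targets were found on both sides. The list's median was 0.022 without ICC replicate 2, 0.030 without CA replicate 1 and 0.013 when _x_at and _s_at probe sets were left out. Enzymes and pumps that conjugate and export catechols and drugs had 16 of 23 above 0 and a median of +0.045, with 1 higher and 0 lower at p under 0.05, with or without the block. The sulfotransferase SULT2B1 read 8.22, 8.08 and 8.01 in ICC and 7.91, 7.87 and 7.60 in CA (0.31 ± 0.095). SULT1A1, which sulfates phenols, stood at +0.09, GSTP1 at +0.13 and the efflux pump ABCG2 at -0.02. This list's median ran from 0.025 without CA replicate 1 to 0.096 without CA replicate 3.

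STAT5B, a signal transducer of cytokine receptors, ATF2, a CREB-related transcription factor, and the G1 cyclin CCND1 are the genes that published work on coffee in this cell line has followed. STAT5B read 7.17, 7.17 and 7.28 log2 in ICC and 7.39, 7.12 and 7.31 in CA (-0.07, 95% interval -0.24 to 0.11), ATF2 9.34, 9.01 and 8.97 against 8.99, 8.99 and 9.01 (+0.11, -0.10 to 0.33), and CCND1 9.24, 8.72 and 9.30 against 9.02, 8.90 and 9.00 (+0.12, -0.19 to 0.42). The groups overlapped in all 3, and the intervals allow differences of up to 0.42 log2, the upper bound of CCND1. ATF2's value rested on ICC replicate 1, without which it was -0.0030, and its other probe sets stood at -0.13 and -0.080. The wider list of STAT5, ATF2/CREB factors and D cyclins had 6 of 13 above 0, a median of -0.011 and 0 genes at p under 0.05 in either direction. Single arrays moved that median from -0.049 (without CA replicate 3) to +0.069 (without CA replicate 2).

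The medians of proliferation genes were close to that of all genes, and single arrays turned their sign. G1/S and replication genes had 13 of 20 above 0 with a median of +0.025, G2/M and mitosis genes 12 of 21 with +0.016, and CDK inhibitors and p53 targets 11 of 17 with +0.027. After centring of the arrays these medians were -0.0052, -0.0137 and -0.0030. Without 1 array the G1/S median ran from -0.037 (CA replicate 2) to +0.074 (CA replicate 1), the G2/M median from -0.083 (ICC replicate 1) to +0.098 (CA replicate 1) and the CDK inhibitor median from -0.064 (CA replicate 3) to +0.124 (CA replicate 2). CCNE2 and CCNA2, the cyclins of S phase entry and progress, stood at -0.13 and -0.17, the helicase subunit MCM7 at +0.13, CDKN1C at +0.24 and RRM2B at -0.22. With the probe set used for each gene, none of these 5 passed p under 0.05. The other probe set stood at +0.013 for CCNA2, -0.32 for CCNE2 and +0.038 for MCM7. Those of CDKN1C stood between +0.13 and +0.26. Tested singly without the block, those at +0.263 and +0.237 passed (limma unadjusted p 0.0205 and 0.0363) and its others did not.

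Interferon-stimulated genes had 16 of 23 measured members below 0 and a median of -0.044, with 0 higher and 0 lower at p under 0.05 and 0 and 1 with the block (IFI6, 10.91, 10.47 and 10.73 log2 in ICC and 11.09, 10.82 and 10.91 in CA). Single arrays turned this list, from -0.273 without ICC replicate 1 to +0.176 without CA replicate 1. NF-kB chemokines and feedback genes had 13 of 19 above 0 and a median of +0.088, which ran from -0.111 without CA replicate 3 to 0.158 without CA replicate 2. Wnt targets and stem cell genes had 17 of 21 above 0 and a median of +0.083, with SOX9 at +0.22 (other probe set -0.056) and ASCL2 at +0.25. That median ran from 0.0027 without CA replicate 2 to 0.146 without CA replicate 1. In none of these 3 lists did a gene pass p under 0.05 without the block.

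Of the other lists, EGFR family receptors and ligands had a median of +0.12 (10 of 14 above 0), with the receptor ERBB3 at +0.20 and its feedback inhibitor LRIG1 at +0.16 (other probe sets from -0.063 to +0.12). It was 0.050 without CA replicate 3, 0.062 without CA replicate 1 and 0.024 when _x_at and _s_at probe sets were left out. Cholesterol and fatty acid synthesis stood at +0.12 (13 of 19), and at 0.053 without ICC replicate 3 and 0.073 without CA replicate 1. Its members MVD, LSS, ACACA and SCD stood between +0.12 and +0.17. Other probe sets stood at +0.0098 and +0.028 for LSS, at +0.14, -0.027 and -0.034 for SCD and at +0.068 for ACACA.

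Chaperones and unfolded protein response genes of the endoplasmic reticulum had a median of +0.034 (15 of 22 above 0), with SEL1L at -0.19 and CALR at +0.15, and it ran from -0.016 without CA replicate 1 to 0.087 without CA replicate 3. Glycolysis and hypoxia genes stood at +0.041 (14 of 21), with ALDOC at +0.19 and PKM at +0.13, and at 0.011 without CA replicate 2. Metallothioneins and zinc transporters stood at -0.0047 (6 of 12) and ran from -0.080 without ICC replicate 1 to +0.063 without CA replicate 1. Their member SLC39A4, a zinc importer, at +0.18, was the 1 gene of these 5 lists at p under 0.05 without the block.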

How the data were processed

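The values analysed are the intensity values that the authors deposited in their series table for 54675 probe sets on 9 arrays, processed by RMA, as the submitters' processing notes say. The series design text names GeneSpring GX, and software versions were not given in the sources used here. Each value's log2 was taken, and 62 Affymetrix control probe sets and those with several genes (1801) or none (11721) were left out. The probe set with the highest mean over the 9 arrays stood for each of 19775 genes, named from the platform annotation. RefSeq's table held the Entrez identifier of 41037 of the 41091 probe sets with 1 gene.

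A linear model of 3 groups over 9 arrays was fitted with limma 3.58.1 in R 4.3.3, and ICC minus CA was tested with moderated statistics and Benjamini-Hochberg adjustment over all genes. With 3 arrays against 3 an exact two-sided permutation test cannot give a p under 0.1. After removal of group means, same-numbered arrays of different groups correlated at 0.327 to 0.518 across genes in all 9 pairs. Other pairs correlated at -0.436 to 0.084. Removing group means makes deviations cancel within a group, so low values in other pairs follow in part from high same-numbered ones. The number was also fitted as a block, a choice made from these same data. Simulated data with known differences were used to check the test. Precision is limited by the number of arrays.

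The comparison, the gene lists and the rule for named genes were chosen with earlier results of these data known. The rule named genes called with or without the block, the 10 highest and 10 lowest by moderated t and the 5 largest each way among genes above the median brightness, all with the arrays apart, up to 4 members of a list by smallest p, and also ATF2, STAT5B and CCND1. Uncharacterised loci and pseudogenes were passed over. TPPP3, ACKR4, ANXA13, LGALS2, AGR2, REG4, SPDEF, MUC5AC, LAPTM5, CD14 and the list members given with a value alone were named after their values were seen. Alternatives were scaling, filters, choice of probe sets, the variance trend, only the 6 arrays, and each array left out. Figures were drawn with matplotlib 3.10.9.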

Additional observations from a re-analysis of the deposited data

How the results depend on the processing

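Without the block 0 genes were called in any alternative run. With the replicate block 1 gene was called, and this count was 2 after quantile normalization was applied again, without dim genes, with probe sets averaged per gene or with an intensity trend in the variance (S100A2 and TPPP3 in each), and 0 with only the ICC and CA arrays or with probe sets tested singly. Leaving out 1 array with the block gave 0 to 0 calls. Genes at an unadjusted p under 0.05 numbered 532, and 1178 with the block, 243 without dim genes and 1448 when 54613 probe sets were tested singly, where fewer or more features are tested by construction, and 346 to 954 without 1 array. With the block they numbered 3010 for single probe sets and 641 to 1478 without 1 array. The direction turned for CEP44 (+0.071 when _x_at and _s_at probe sets were left out, with or without the block), STAT5B (+0.0037 without CA replicate 1, with the block) and ATF2 (-0.032 with the mean of probe sets, with or without the block, -0.0030 without ICC replicate 1 against 0.18 without ICC replicate 3, and -0.025 without ICC replicate 1 with the block). The cause of these changes was not tested. Exactly equal values in an ICC and a CA array occurred in 4154 genes (21.0%), and the fit does not model them. Equal values also occurred within groups. For example, all 3 untreated arrays read 3.9494 log2 in PARP15 and 7.2327 in STAT5B. ICC replicates 1 and 3 both read 6.4422 in TFAP2A and 4.4652 in ALOX15. Such values enter the estimate of the spread, and their part in the ranks and intervals was not tested. With 3 arrays in a group the median SE was 0.092 log2, and 0.078 with the block. The SE is not a limit of detection. Without the block even S100A2 at 0.65 log2 and AQP5 at 0.52 were not called. The lack of a call therefore does not show that a gene was unchanged.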

Other observations

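Of 6 leukocyte markers measured in this epithelial line, 0 had an unadjusted limma p under 0.05 between ICC and CA without the replicate block and 2 were higher in ICC with it. Over all genes 2.19% were higher and 0.496% lower at this threshold without the block, and 4.63% and 1.32% with it. LAPTM5, a lysosomal membrane protein of blood cells, read 7.82, 7.16 and 7.03 log2 in ICC, 7.33, 7.01 and 6.41 in CA and 7.78, 7.32 and 6.77 in untreated cells. The groups overlapped, every same-numbered pair was higher in ICC, and the difference of 0.42 had an SE of 0.29 without the replicate block and of 0.093 with it (limma adjusted p 0.563 with the block). CD14, the lipopolysaccharide co-receptor, read 7.45, 7.12 and 6.95 in ICC, 7.19, 6.62 and 7.00 in CA and 7.78, 7.03 and 7.17 in untreated cells, with replicate 1 the highest in all 3 groups and 2 of 3 pairs higher in ICC. The other probe set of LAPTM5 stood at +0.12.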
